A study of Homo sapiens with 32 samples.

Results

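HNF4α binding was examined at the genes of 10 other nuclear receptors: PPARA, PPARG, PPARD, RXRA, NR2F1, NR2F2, NR2F6, NR5A2, VDR and ESRRA. These are 10 of the 20037 protein-coding genes in the gene table. A peak was assigned to a gene when its summit lay inside the gene's span or within 50 kb of either end, and peaks of different lists that overlapped were joined into 1 region. Of the 78729 regions in the series, 133 lay at these genes, and 61 of the 133 had their median summit inside a span. Below, a region is called inside a gene by its median summit. The rule that lists them uses gene names and no binding value, but the set was proposed with earlier results of these data known.

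Binding came from chromatin immunoprecipitation sequencing (ChIP-seq) of 3 established human pancreatic ductal adenocarcinoma cell lines, deposited as 18 peak lists in 9 groups of 2 replicates. Panc10.05 and BxPC3 carried a doxycycline-inducible HNF4α isoform, either P1-α2, from the gene's P1 promoter, or P2-α8, from its P2 promoter. BxPC3 received 500 ng/mL doxycycline for both isoforms, while in Panc10.05 the dose was 25 ng/mL for the P1-α2 cells and 12.5 ng/mL for the P2-α8 cells, so isoform and dose cannot be told apart there. AsPC1 cells carried CRISPR interference with a control guide (sgNC), a guide against the P1 promoter (sgP1) or a guide against the P2 promoter (sgP2), without an induced isoform. All 7 of these groups were precipitated with an antibody to all HNF4α isoforms (pan). A second antibody, which recognises P1 isoforms only, was also used on AsPC1 sgNC and AsPC1 sgP2. The induced lines are models of forced expression. The lists hold no expression values, so the cell lines could not be checked against marker genes. The replicates are not stated to be separate cultures, so p-values measure the spread between these libraries only.

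List length bears on every count below. The lists held 24828 and 34146 peaks for Panc10.05 P1-α2, 39111 and 33646 for Panc10.05 P2-α8, 41808 and 33737 for BxPC3 P1-α2, and 12681 and 14666 for BxPC3 P2-α8. The 6 AsPC1 pan lists held between 11686 and 24295 peaks, the sgNC P1-antibody lists 697 and 260, and the sgP2 P1-antibody lists 5200 and 3916. The lowest −log10 q was 8 to the nearest whole number in the Panc10.05 and BxPC3 lists and 2 in the AsPC1 lists, so numbers of peaks were not tested between these sets. Line and sequencing series cannot be told apart, because the library names put each line in a series of its own. Between Panc10.05 and BxPC3, line and doxycycline dose cannot be told apart either, since every BxPC3 library had the higher dose.

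Nuclear receptors are transcription factors that bind hexamers related to AGGTCA, often as a pair in direct repeat, and many of them are switched by lipids, hormones or vitamins. HNF4α is itself a receptor of this family; it binds as a homodimer to direct repeats spaced by a single base and is known for liver, gut and pancreatic gene programs. PPARs with RXRα, and the COUP-TF receptors NR2F1, NR2F2 and NR2F6, can use the same kind of element, so the family shares response elements and regulates some of its own members. NR5A2 and ESRRα bind as monomers or homodimers to an extended hexamer, and VDR pairs with RXRα.

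Promoter sequence is shown first because 3 of these genes had a peak summit in their RefSeq promoter window, which runs from 250 bases before the annotated start to shortly after it. TTC38 is added because a widely found region of the PPARA window covers its start. RefSeq promoters (GRCh38.p14) were at hand for 8 of the 10 genes, with VDR and NR2F6 the exceptions. Each line gives the 250 bases before the start, 5′ to 3′ on the gene's strand, with capitals marking a match, on either strand, to AGGTCA or to CAAAGNNCA, a short form of an HNF4 motif. A CAAAGNNCA match with GT in place of NN also holds AGGTCA.

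NR2F1, chr5:93582972-93583221, plus strand: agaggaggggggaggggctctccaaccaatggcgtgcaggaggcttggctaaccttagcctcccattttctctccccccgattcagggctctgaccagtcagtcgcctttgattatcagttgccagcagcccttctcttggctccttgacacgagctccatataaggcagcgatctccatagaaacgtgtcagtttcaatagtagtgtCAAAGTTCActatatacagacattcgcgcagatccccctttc

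NR5A2, chr1:200027460-200027709, plus strand: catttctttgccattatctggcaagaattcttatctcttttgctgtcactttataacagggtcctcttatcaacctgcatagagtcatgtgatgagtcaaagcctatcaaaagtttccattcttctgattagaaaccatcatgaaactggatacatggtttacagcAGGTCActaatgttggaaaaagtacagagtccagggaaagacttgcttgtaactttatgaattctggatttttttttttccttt

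PPARA, chr22:46150276-46150525, plus strand: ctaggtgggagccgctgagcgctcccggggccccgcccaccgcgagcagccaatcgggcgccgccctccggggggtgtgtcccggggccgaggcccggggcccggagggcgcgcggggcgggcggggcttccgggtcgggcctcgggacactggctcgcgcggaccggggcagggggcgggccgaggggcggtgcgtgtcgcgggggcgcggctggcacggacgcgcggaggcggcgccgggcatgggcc

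TTC38, chr22:46267758-46268007, plus strand: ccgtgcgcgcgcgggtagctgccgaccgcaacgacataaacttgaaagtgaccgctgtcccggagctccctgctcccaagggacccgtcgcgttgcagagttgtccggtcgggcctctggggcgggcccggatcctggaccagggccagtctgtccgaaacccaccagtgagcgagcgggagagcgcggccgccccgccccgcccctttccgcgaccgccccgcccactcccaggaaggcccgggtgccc

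Matches were sought in the printed bases, but summits were counted over the whole promoter window, which runs past them. The NR2F1 promoter held 1 CAAAGNNCA match, beginning at base 209 of the printed sequence, and a summit fell in the promoter window in 7 lists. The median summit of that region, chr5:93583236, lay past the end of the printed bases. The NR5A2 promoter held 1 AGGTCA match, beginning at base 167, and a summit in 2 lists, both from AsPC1 sgNC. No match was found in the PPARA promoter, which had a summit in 2 lists, or in the promoter of TTC38, a neighbour of PPARA, which had a summit in 6 lists and a peak over it in 14. Of 35116 RefSeq promoters of this length, 12.1% held AGGTCA and 4.44% held CAAAGNNCA. The 4 sequences differed in base composition: 84.4% of the PPARA promoter, 72.4% of the TTC38 promoter, 52.4% of the NR2F1 promoter and 36% of the NR5A2 promoter was G or C, beside a median of 58% over all promoters. A match is a description of the letters and no evidence of a site.

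With the pan antibody, 5 of the 10 genes (PPARA, RXRA, NR2F1, VDR and ESRRA) had at least 1 peak in all 14 lists, beside 29.6% of all protein-coding genes. Every one of the 10 had a peak in both lists of Panc10.05 P1-α2, of BxPC3 P1-α2 and of AsPC1 sgNC, where 74.5%, 76.6% and 58.5% of all genes did. In Panc10.05 P2-α8 9 genes did, all but NR5A2, beside 79.5%. In BxPC3 P2-α8, whose lists were the shortest of the induced lines, the same 5 genes that were present in all 14 lists had a peak in both lists, beside 45.4% of all genes. In AsPC1 the count was 7 of 10 under sgP1 (without PPARD, NR2F2 and NR5A2) beside 50.6%, and 8 of 10 under sgP2 (without PPARD and NR5A2) beside 52%. With the P1 antibody it was 2 of 10 under sgNC (PPARA and NR2F1) beside 2.31%, and 6 of 10 under sgP2 (PPARA, PPARG, RXRA, NR2F1, NR2F6 and ESRRA) beside 23.7%. List length moved some of these counts: with lists of equal length BxPC3 P1-α2 had 5 genes, as BxPC3 P2-α8 did, and the P1 antibody had 0 under sgNC and 0 under sgP2. With peaks of a −log10 q of at least 20 the P1-antibody counts were 0 and 3. No share of all genes is given for these settings. At equal length the P1-antibody lists held 260 peaks each, so few genes could have a peak in both. The windows differ in length, from 111 kb at ESRRA and NR2F1 to 250 kb at NR5A2 to the nearest kb, so peak numbers are not compared between genes. Numbers of peaks by library are in the map of peak counts.

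**Figure D1:**
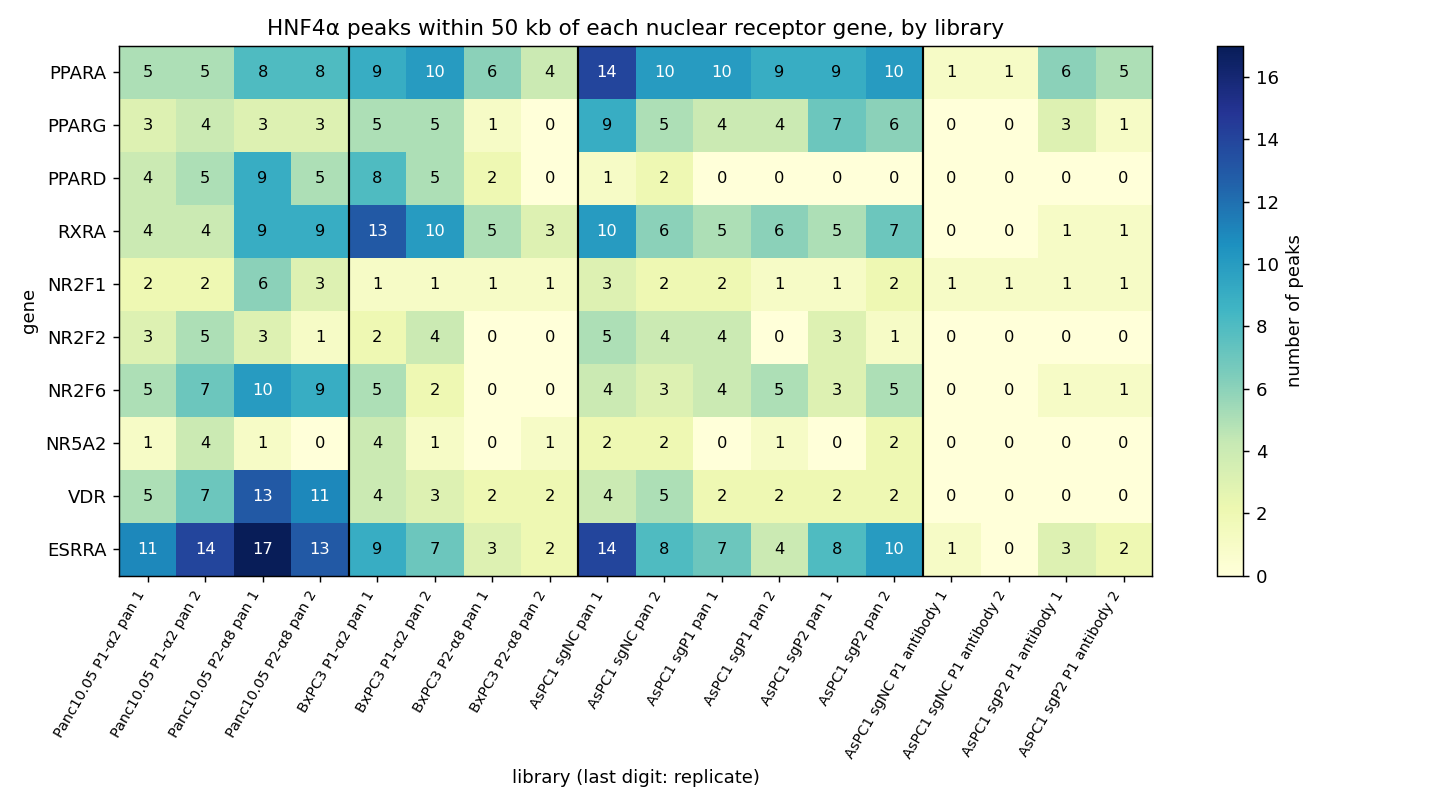
Number of HNF4α peaks whose summit lies within 50 kb of each nuclear receptor gene (rows) in each of the 18 lists (columns, the last digit being the replicate), with colour following the printed number. ESRRA reaches 17 peaks in Panc10.05 P2-α8 replicate 1, and PPARD has none in any sgP1, sgP2 or P1-antibody list.

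Of the 133 regions, a single one was found in all 18 lists. Those found in all 14 pan lists numbered 3 (2.26%), beside 2.95% of all regions in the series, and 31 (23.3%) were found in 1 list, beside 27.9% of all regions in the series. Of the 133, 61 were found in lists of the induced lines alone, 25 in AsPC1 lists alone and 47 in both. No share of all regions is given for this split, so it describes these regions only. For 85 of them the receptor was the nearest protein-coding gene. The gene table gives spans without exons, so a summit inside a gene is not placed in an exon or intron here. The spans also carry no strand. For regions, before and beyond a gene mean at lower and higher coordinates than its span, not upstream and downstream of its start.

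NR2F1 (COUP-TFI) and NR2F2 (COUP-TFII) are orphan receptors that often repress genes driven by other receptors. NR2F1 had at least 1 peak in each of the 18 lists and exactly 1 in each of the 4 BxPC3 lists. A region over the NR2F1 start, chr5:93582719-93583521, was found in all 4 Panc10.05 lists, both sgNC lists, 1 sgP1 list and 1 sgP2 list, at percentiles of 5.29 to 60.9, and in no BxPC3 list. This is the region that covers the promoter printed above.

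At PPARA, the fatty acid receptor that drives fatty acid oxidation genes, 17 regions were found and 7 of them were in 10 lists or more. The region chr22:46170438-46171620, inside PPARA, was present in all 14 pan lists and in both sgP2 P1-antibody lists. Its percentiles ran from 81 to 94.8 in the 8 induced lists and from 65.3 to 93.8 in the AsPC1 pan lists. So the site was among the stronger peaks in each induced list and in 5 of the 6 AsPC1 pan lists, sgP2 replicate 2 having the 65.3. The region chr22:46263979-46265085, 20.9 kb beyond the gene and 1.33 kb from PKDREJ, was found in 17 lists, all but Panc10.05 P2-α8 replicate 1. It ranked differently in the 2 sets of lists: its percentiles were 24.5 to 84 in the induced lists that held it and 95.3 to 98.4 in the AsPC1 pan lists. A region 44.4 kb before PPARA, chr22:46105234-46106728, inside the let-7 host gene MIRLET7BHG, was absent from all 4 Panc10.05 lists. It stood at percentiles of 21.2 to 50.6 in BxPC3 and 89.9 to 97.2 in the AsPC1 pan lists. This region was singled out after its values were seen. Ranks within lists of unequal length are descriptions of each list and show no change between them.

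PPARG, the receptor of adipocyte differentiation and lipid storage, had 11 regions. The region inside the gene at chr3:12405472-12406222 was present in 12 pan lists, all but the BxPC3 P2-α8 pair, at percentiles of 33.5 to 87.8.

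PPARD, a broadly expressed fatty acid sensor, had peaks in both induced lines and few in AsPC1. Its peaks numbered 4 and 5 in Panc10.05 P1-α2, 9 and 5 in Panc10.05 P2-α8, 8 and 5 in BxPC3 P1-α2 and 2 and 0 in BxPC3 P2-α8, but 1 and 2 in AsPC1 sgNC and 0 in each of the other AsPC1 lists. None of its 14 regions was shared by an induced list and an AsPC1 list: 12 were found in induced lists alone and 2 in AsPC1 alone. No share of all regions is given for this split either. The 2 regions found in the most lists, 6 each, were chr6:35302579-35303488 inside DEF6, 39.3 kb before PPARD, and chr6:35371142-35372173 inside PPARD. In the 6 AsPC1 pan lists PPARA had 9 to 14 peaks and PPARG 4 to 9. Whether the PPAR genes differ in this respect was not tested.

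**Figure D2:**
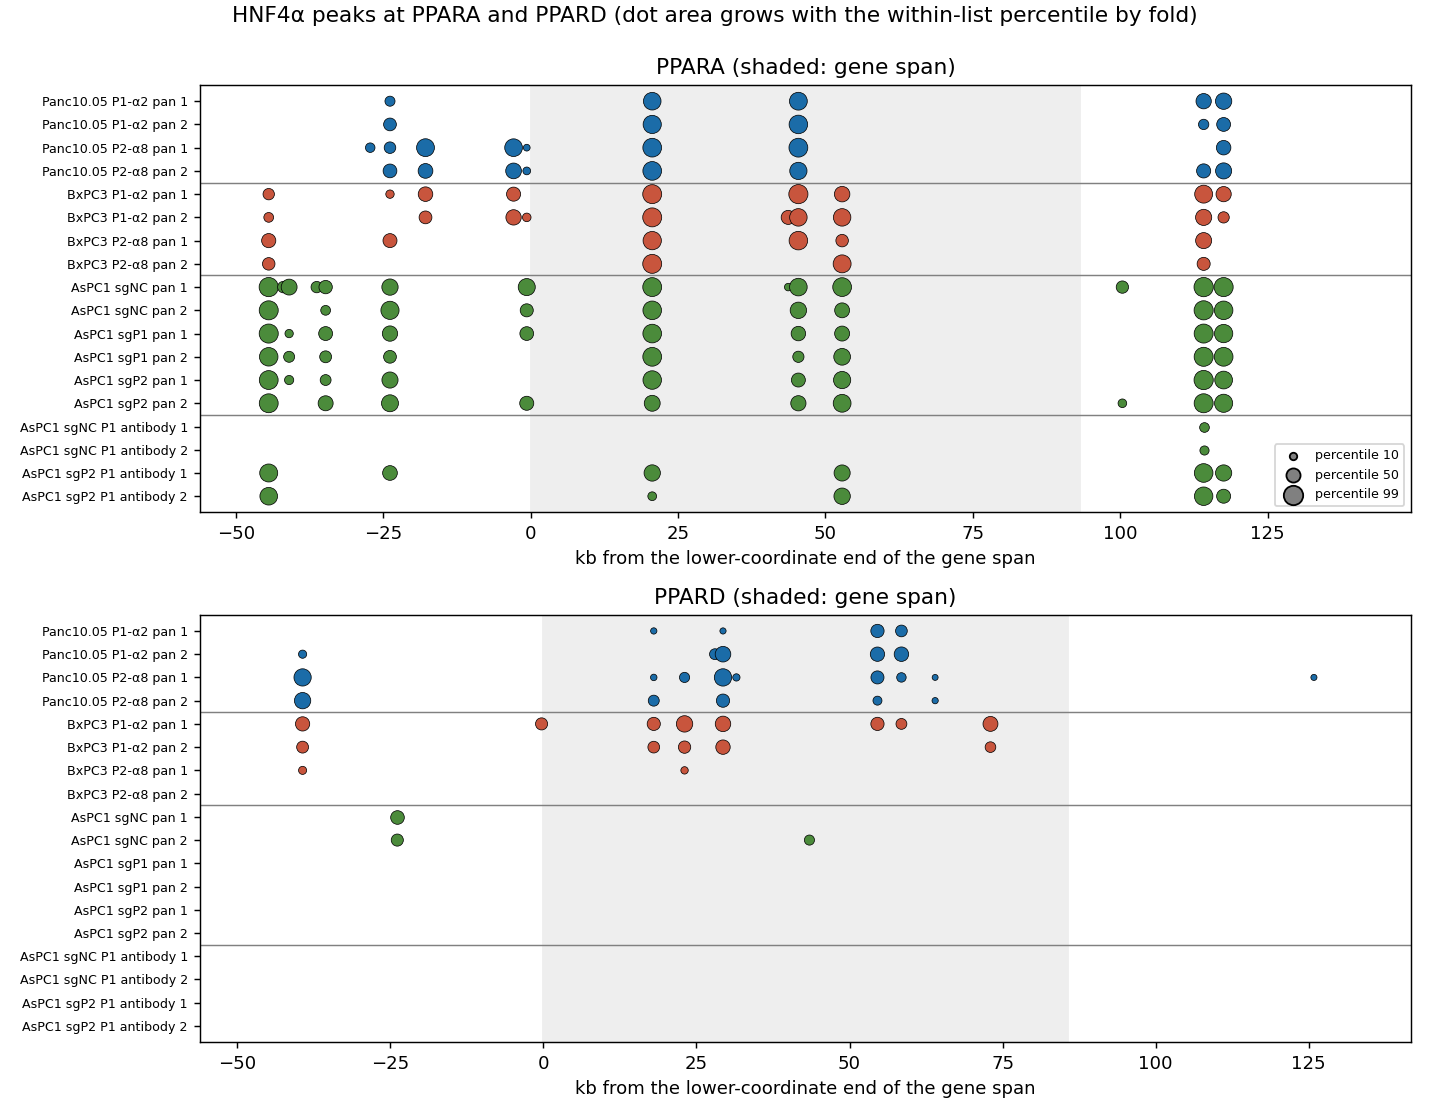
Each dot is an HNF4α region found in a list at PPARA or PPARD, drawn at the region's median summit over all lists. The horizontal axis is kb from the lower-coordinate end of the gene span (shaded), with 1 line of dots per list. Dot area grows with the percentile by fold, within the list, of its strongest peak in the region. Peaks of a list in the same region share 1 dot. PPARA has 9 to 14 peaks in the AsPC1 pan lists, and PPARD has 1 or 2 in the sgNC pan lists and none in the remaining AsPC1 lists.

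RXRα is the partner with which the PPARs and VDR bind DNA. RXRA had 21 regions, 13 of them inside the gene, and its window held no other protein-coding gene. The region chr9:134377751-134378416 was found in 12 pan lists at percentiles of 11 to 87.3. The region chr9:134335689-134336650 stood at percentiles of 80.3, 92.9, 94.2 and 95.7 in the Panc10.05 lists but was found in 2 of the 4 BxPC3 lists and 3 of the 6 AsPC1 pan lists. Another, chr9:134382405-134383360, was in all 6 AsPC1 pan lists at 77.7 to 92.2 and in no induced list; it was singled out after its values were seen.

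At NR2F2 the peak numbers were 3, 5, 3 and 1 in the Panc10.05 lists, 2, 4, 0 and 0 in the BxPC3 lists and 0 to 5 in the AsPC1 pan lists. The region found in the most lists, chr15:96330280-96330998 inside NR2F2, was in 9 pan lists, at percentiles of 69.5 at most. The next, chr15:96332739-96333280, also inside NR2F2, was in 7. Neither was found in BxPC3 P2-α8 or with the P1 antibody.

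At NR2F6 (EAR2), another receptor of the COUP-TF group, the region chr19:17243284-17247343 was found in 14 lists. Its median summit lay inside the gene, and the region ran past the gene's upper end. It was at 85.8 to 94.9 in Panc10.05, 47.2 and 62.3 in BxPC3 P1-α2, absent from BxPC3 P2-α8, and at 51.2 to 86.6 in the AsPC1 pan lists. The second, chr19:17226010-17226923, lay inside OCEL1, 5.5 kb before NR2F6, and was in the 4 Panc10.05 and 6 AsPC1 pan lists and in no BxPC3 list.

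NR5A2 (LRH-1), an orphan receptor of liver and exocrine pancreas, had 0 to 4 peaks per pan list across a window of 250 kb, and none with the P1 antibody. None of its 9 regions was in more than 4 lists. The region chr1:200061421-200061930, inside NR5A2, was found in 4 induced lists at percentiles of 56.2 to 85, among them both BxPC3 P1-α2 lists. The region chr1:200131552-200131894, also inside NR5A2, was in 4 lists at 3.6 to 49.3.

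VDR, the vitamin D receptor, had 13 regions. At chr12:47896559-47897643, inside VDR, a peak was present in all 8 induced lists, at percentiles of 88.1, 90.7, 94.2 and 91.9 in Panc10.05 and of 92.1, 84.7, 25.3 and 76.9 in BxPC3. In AsPC1 it was found under sgNC alone, at 4.55 and 1.43, and these 2 sgNC peaks had a fold of 3.58 and 3.26. The site was thus near the bottom of both sgNC lists and absent from the sgP1 and sgP2 lists. The region chr12:47818850-47822000, 22.2 kb before VDR and inside HDAC7, a histone deacetylase gene, was found in the 4 Panc10.05 lists at 51.2 to 66.8 and in the 6 AsPC1 pan lists at 48.3 to 86.2, and in no BxPC3 list.

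**Figure D3:**
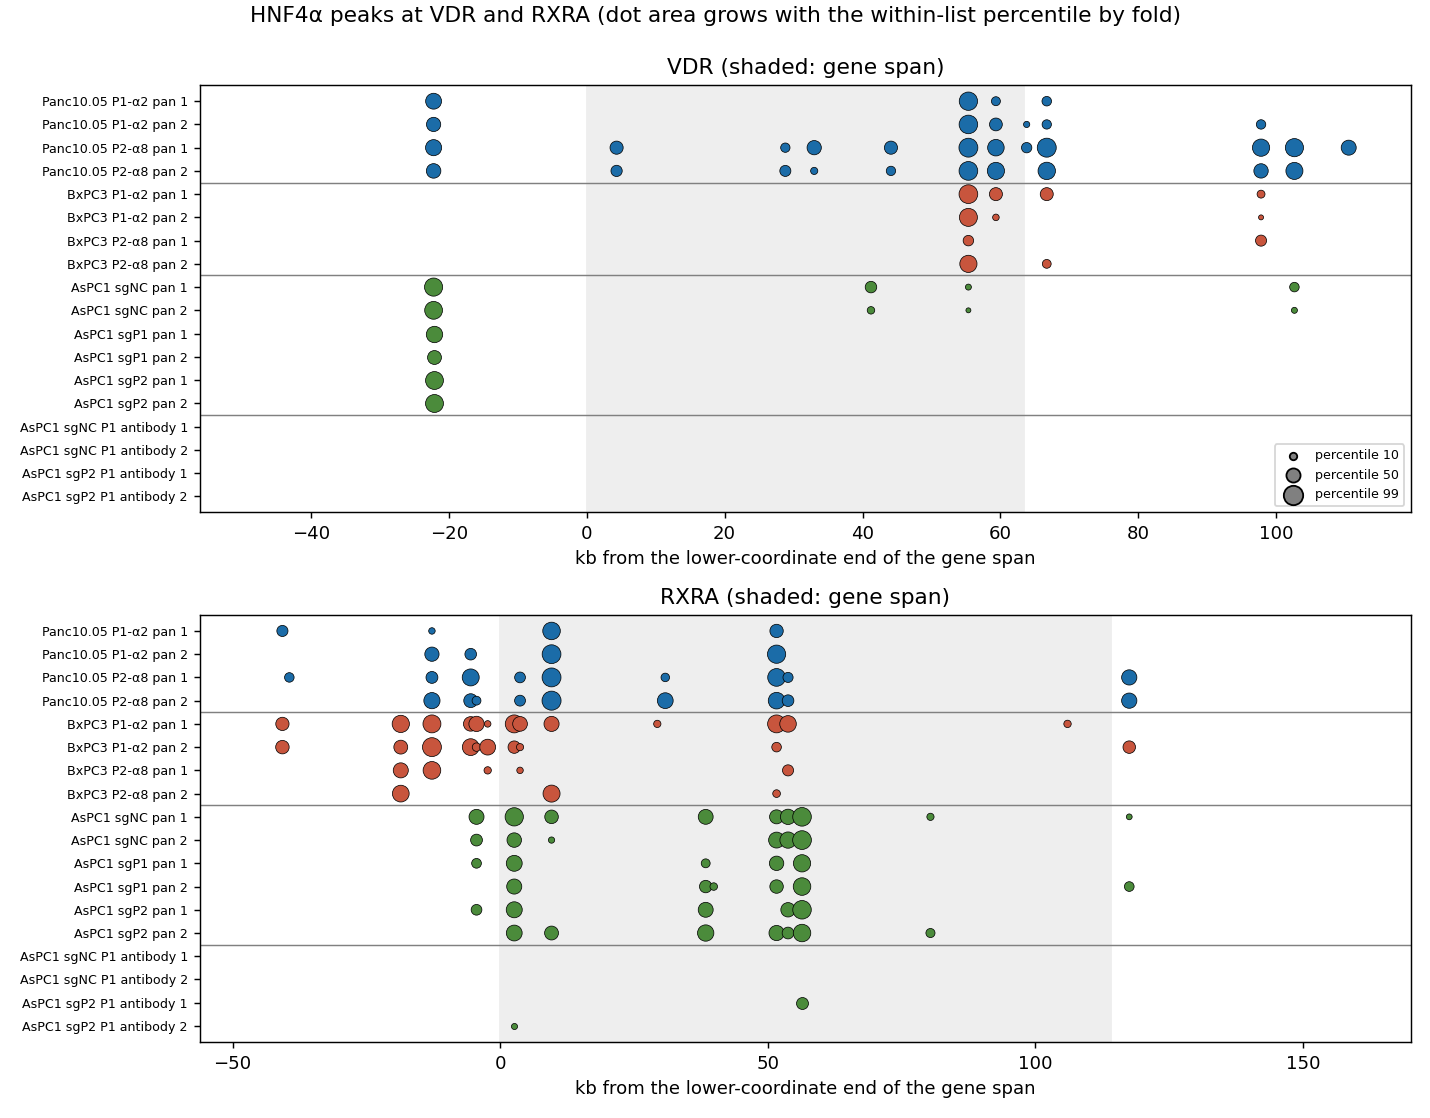
Each dot is an HNF4α region found in a list at VDR or RXRA, drawn at the region's median summit over all lists. The horizontal axis is kb from the lower-coordinate end of the gene span (shaded), with 1 line of dots per list. Dot area grows with the percentile by fold, within the list, of its strongest peak in the region. Peaks of a list in the same region share 1 dot. RXRA regions are spread over the span and its flanks. At VDR the region near the upper end of the span is filled in the 8 induced lists and faint in the sgNC lists.

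ESRRα, an orphan receptor known for mitochondrial genes, lies in a window with 9 other protein-coding genes, and 23 regions were assigned to ESRRA. The region chr11:64305562-64307364, inside ESRRA, was found in all 14 pan lists and in 3 of the 4 P1-antibody lists. Panc10.05 lists placed it at percentiles of 53.1 to 93.5, BxPC3 lists at 35.3 to 70.2 and AsPC1 pan lists at 83.6 to 93.5. The region chr11:64304128-64305176, 0.716 kb before ESRRA, was in 11 pan lists at 5.41 to 70.2, among them all 4 Panc10.05 and all 6 AsPC1 pan lists, and in 1 P1-antibody list. Another, chr11:64331782-64332509, 15.4 kb beyond ESRRA, was in 11 pan lists at 6.81 to 86.9; it was singled out after its values were seen. Of its 23 regions, 4 were inside ESRRA.

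By cell line, 91 regions at these genes were present in both pan lists of at least 1 group. Of the 91, 15 (16.5%) met this in all 3 lines, beside 12.7% of all regions. A further 11 (12.1%) met it in Panc10.05 and BxPC3 alone, beside 21.4%, 14 (15.4%) in Panc10.05 and AsPC1, beside 5.59%, and 5 (5.49%) in BxPC3 and AsPC1, beside 2.5%. Regions of a single line numbered 24 (26.4%) for Panc10.05, 10 (11%) for BxPC3 and 12 (13.2%) for AsPC1, beside 26.9%, 21.3% and 9.58%. The share common to Panc10.05 and AsPC1 was spread over 8 of the 10 genes, with 4 regions at ESRRA, 2 each at PPARA, RXRA and VDR, and 1 each at PPARG, NR2F1, NR2F2 and NR2F6. AsPC1 lists reach down to a lower −log10 q. With a −log10 q of at least 20 in each list, 66 regions were left. The class of Panc10.05 and AsPC1 then held 4 (6.06%, beside 2.41% of all regions), that of all 3 lines 7 (10.6%, beside 8.52%), that of BxPC3 and AsPC1 3 (4.55%, beside 1.19%) and that of AsPC1 alone 3 (4.55%, beside 2.88%). With at least 8, the class of Panc10.05 and AsPC1 held 10 of 85 (11.8%, beside 3.98%) and AsPC1 alone 6 (7.06%, beside 5.75%).

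The question of which line carries more sites was tested between Panc10.05 and BxPC3, whose lists share a lowest q, on the number of peaks per gene in 4 lists of each line. Doxycycline dose and sequencing series differ with line here and cannot be told apart from it. A two-sided exact permutation test exchanged line labels within each isoform, which gives 36 labellings and a smallest possible p of 0.0556, so no gene could pass 0.05. VDR had 5, 7, 13 and 11 peaks in the Panc10.05 lists and 4, 3, 2 and 2 in the BxPC3 lists, a mean of 9 ± 3.65 (SD, n = 4) against 2.75 ± 0.957. ESRRA had 11, 14, 17 and 13 against 9, 7, 3 and 2, a mean of 13.75 ± 2.5 against 5.25 ± 3.3. NR2F1 had 2, 2, 6 and 3 against 1 in each BxPC3 list, a mean of 3.25 ± 1.89 against 1. In these 3 genes every Panc10.05 list lay above every BxPC3 list, with the smallest p of the exact test, 0.0556, and an adjusted p of 0.32 over 18569 genes. In the same direction 15.4% of all genes reached the smallest p, and 1.95% did so with more peaks in BxPC3, where none of the 10 did. NR2F6 followed, with 5, 7, 10 and 9 peaks against 5, 2, 0 and 0 (exact permutation p = 0.111). The remaining 6 genes had exact permutation p-values of 0.222 to 1. When all 8 lists were shortened to 12681 peaks by fold, the differences in mean peak number fell to 1.5 at VDR, 2 at ESRRA and 0.5 at NR2F1, all above the smallest p, while NR2F6 had 3, 4, 4 and 4 peaks against 0 in each BxPC3 list and reached the smallest p, as did 11.2% of all genes in that direction at this length. At a −log10 q of at least 20 the difference was 1.25 at NR2F1 and 6 at ESRRA, with exact permutation p-values of 0.167 and 0.111, and VDR alone of the 10 was at the smallest p, beside 15.1% of all genes. Within a 10 kb window the differences were 3.5 at VDR and 1.25 at ESRRA, with exact permutation p-values of 0.111 and 0.333.

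Between isoforms the same test, with isoform labels exchanged within each line, put none of the 10 genes at the smallest p. The lowest exact permutation p was 0.111, for NR2F2, with 3, 5, 2 and 4 peaks in the P1-α2 lists and 3, 1, 0 and 0 in the P2-α8 lists, and its adjusted p was 0.987 over all genes. Among all genes 2.47% reached the smallest p with more peaks under P1-α2 and 0.00539% with more under P2-α8. Under 2 alternatives some of the 10 did reach it. At a −log10 q of at least 20 these were PPARG and NR2F2, with 3 and 2.25 more peaks on average under P1-α2, beside 3.12% of all genes. With lists of equal length it was VDR, whose P1-α2 minus P2-α8 difference was −2, beside 1.09% of all genes with more peaks under P2-α8. Over both tests, no gene of 18569 had an adjusted p at or under 0.05 or an unadjusted p below it.

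At 4 of the 10 genes the isoforms pointed opposite ways by line, with no overlap between their lists. At PPARG, NR2F2 and NR5A2 the mean was higher under P1-α2 in both lines. PPARA had 5 and 5 peaks under P1-α2 and 8 and 8 under P2-α8 in Panc10.05, but 9 and 10 under P1-α2 and 6 and 4 under P2-α8 in BxPC3. RXRA had 4 and 4 against 9 and 9 in Panc10.05, and 13 and 10 against 5 and 3 in BxPC3. NR2F6 had 5 and 7 against 10 and 9, and then 5 and 2 against 0 and 0. VDR had 5 and 7 against 13 and 11, and then 4 and 3 against 2 and 2. At these 4 genes both P2-α8 lists lay above both P1-α2 lists in Panc10.05 and below them in BxPC3, a pattern found at 16.9% of all genes tested. Lists of P2-α8 were the shorter ones in BxPC3, and in Panc10.05 one of the P2-α8 lists was the longest. With all 8 lists at 12681 peaks, none of the 10 genes and 0.732% of all genes showed the pattern. With full lists 3138 genes showed the pattern and 0 showed its reverse. At equal length 136 showed the pattern and 124 its reverse. Shortening also leaves fewer peaks in every list but the shortest, and the part of list length was not tested. At a −log10 q of at least 20 the pattern was found at PPARA, RXRA and NR2F6, and at 11.7% of all genes.

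**Figure D4:**
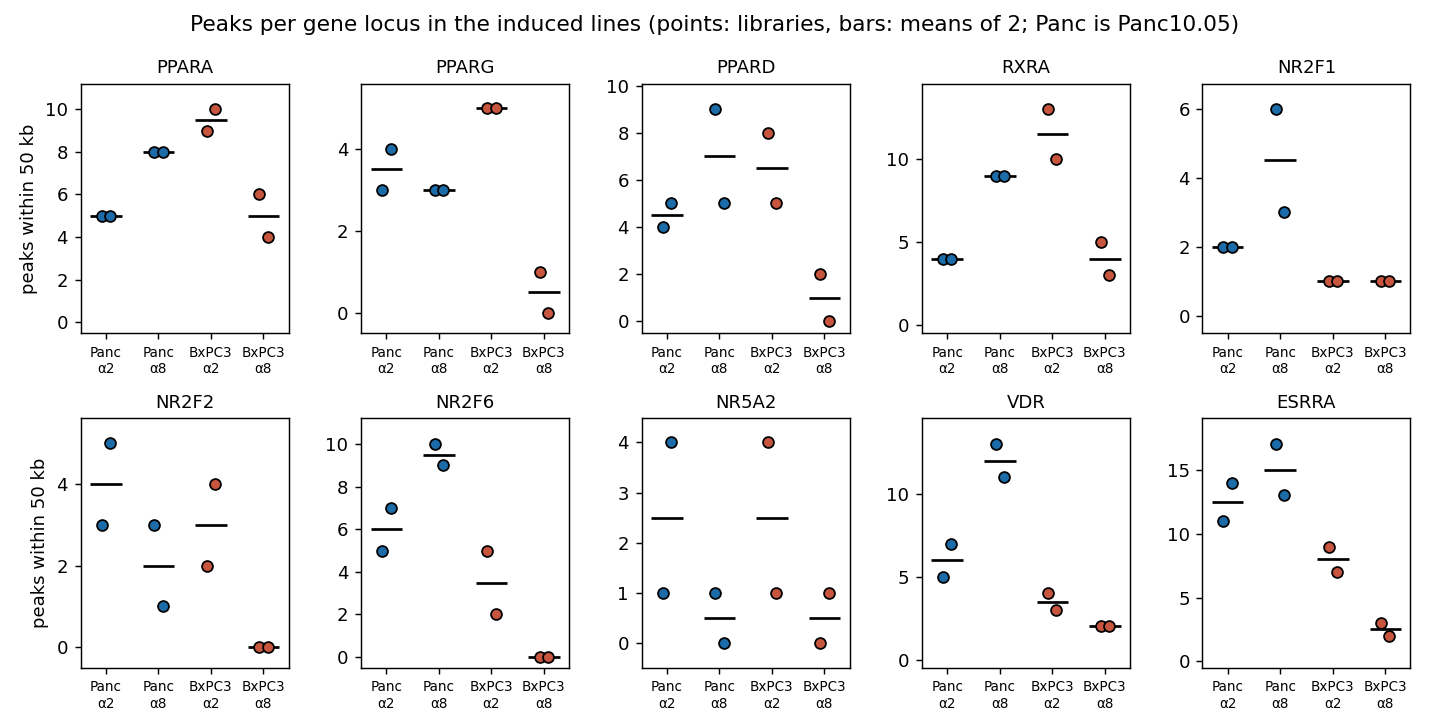
Peaks within 50 kb of each nuclear receptor gene (vertical axes, scaled per gene) in the 8 induced lists, by line and isoform, with points for single libraries and bars for the mean of 2. At PPARA, RXRA, NR2F6 and VDR the α8 points are above the α2 points in Panc10.05 and below them in BxPC3.

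Single sites were compared next, as regions present in the 2 lists of a group and absent from the 2 lists it was compared with. With 2 lists against 2 no exact test can go below 0.333, so counts are set beside the share of all regions called the same way. In Panc10.05, 18 of the 93 regions at the 10 genes (19.4%) were specific to P2-α8, beside 10.9% of all regions. The 18 were 5 at VDR, 4 at RXRA, 3 at NR2F6, 2 at PPARA and 1 each at PPARG, PPARD, NR2F1 and ESRRA. The highest ranked was chr12:47943690-47944478, 39.2 kb beyond VDR, at percentiles of 86.4 and 75.4. It was followed by a pair before PPARA: chr22:46147070-46147965, 2.9 kb from the gene, at 81.7 and 63.4, and chr22:46132304-46133281, 17.5 kb from it, at 83.3 and 55.1. Regions specific to P1-α2 numbered 2 of 93 (2.15%), beside 3.64% of all regions. They were chr3:12454121-12454572, 20 kb beyond PPARG, at 43.3 and 58.9, and chr1:200131573-200131892, inside NR5A2, at 49.3 and 11.2. With all 4 lists at 24828 peaks by fold, P2-α8 had 12 specific regions of 72 (16.7%, beside 8.15% of all regions) and P1-α2 had 3 (4.17%, beside 7.17%). Without P2-α8 replicate 2 the P2-α8 count was 32. Without P1-α2 replicate 1 and without P2-α8 replicate 1 the P1-α2 count was 9 and 6, and joining peaks by summits within 100 bp made it 5.

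In BxPC3 the balance was the other way. Regions specific to P1-α2 numbered 23 of 67 (34.3%), beside 28.2% of all regions, and those specific to P2-α8 0 of 67, beside 0.129%. The 23 were 5 at PPARG, 4 at RXRA, 3 each at PPARA, PPARD and ESRRA, 2 each at NR2F2 and NR2F6 and 1 at VDR. The highest ranked were chr3:12353783-12354138 inside PPARG, at 79.9 and 75.6, chr3:12405729-12406154 inside PPARG, at 77.4 and 49.1, and chr9:134320706-134321132, 5.5 kb before RXRA, at 53.2 and 73.1. The P1-α2 lists were the longer ones: with all 4 lists at 12681 peaks, 1 region of 30, at PPARG, was specific to P1-α2 and 2 of 30 were specific to P2-α8 (beside 6.82% and 5.31% of all regions). Without P1-α2 replicate 2 the P1-α2 count was 37, within a 10 kb window it was 15, and without P2-α8 replicate 2 the P2-α8 count was 1.

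Both regions before PPARA that were specific to P2-α8 in Panc10.05 overlapped regions specific to P1-α2 in BxPC3, which were chr22:46147331-46147970, at 49.7 and 60.3, and chr22:46132205-46132550, at 53.6 and 40.3. They were 2 of the 18, beside 10.6% of all regions specific to P2-α8 in Panc10.05. The region beyond PPARG was specific to P1-α2 in both lines: its BxPC3 peaks, at chr3:12454139-12454508, stood at 41.6 and 50.3. It was 1 of the 2, beside 20.4% of all regions specific to P1-α2 in Panc10.05.

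**Figure D5:**
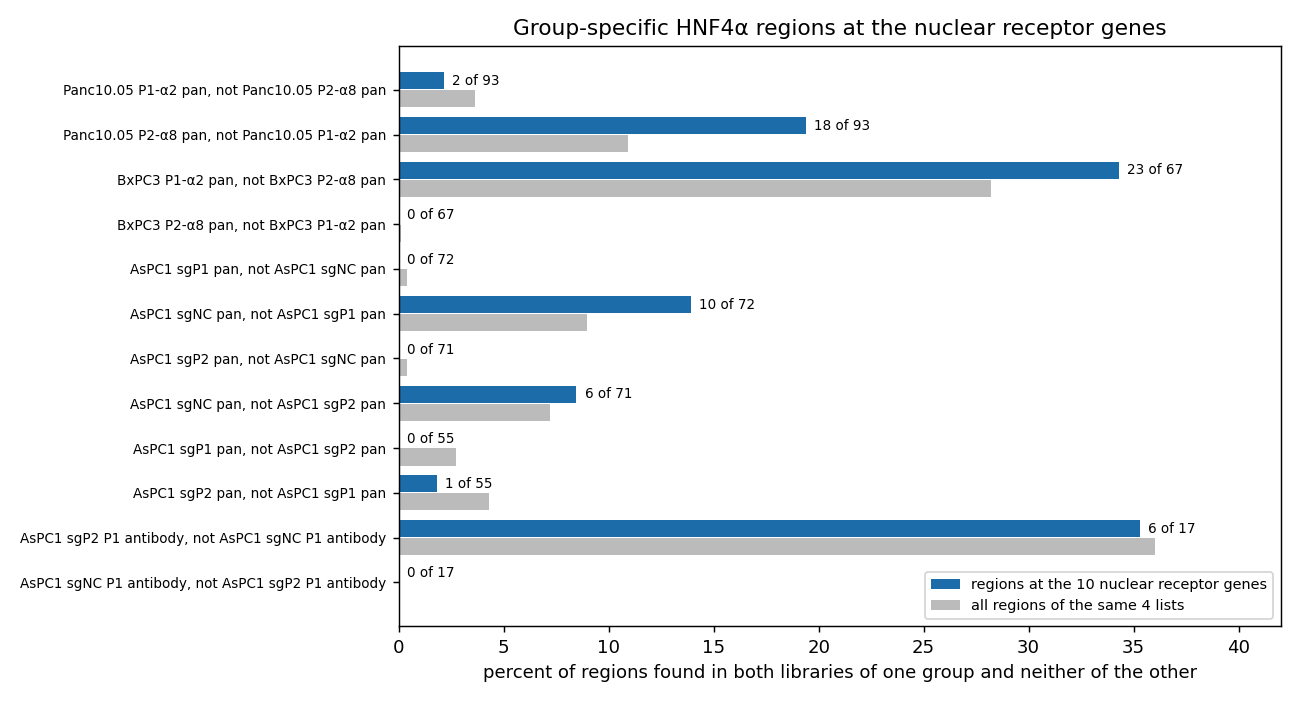
Percent of regions present in the 2 lists of a group and absent from the 2 lists it was compared with, for each comparison and direction, at the 10 nuclear receptor genes (blue, with the count) and over all regions of the same 4 lists (grey). The P2-α8 bar of Panc10.05 stands at 19.4% beside 10.9%, and the P1-antibody bar of sgP2 at 35.3% beside 36%.

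In AsPC1 the guides were compared with the control guide on the pan lists. Under sgNC and not under sgP1, 10 regions of 72 (13.9%) were found, beside 8.97% of all regions, and 0 of 72 the other way, beside 0.409%. The 10 were 3 at VDR, 2 each at RXRA, NR5A2 and ESRRA and 1 at PPARD. The highest ranked were chr9:134380053-134380448 inside RXRA, at 60 and 68.4, chr1:200040247-200040921 inside NR5A2, at 72.6 and 46, and chr11:64334711-64335639, 18.5 kb beyond ESRRA, at 74.2 and 26.1. Against sgP2, 6 regions of 71 (8.45%) were found under sgNC alone, beside 7.2%, and 0 of 71 under sgP2 alone, beside 0.407%. These 6 were 3 at VDR and 1 each at PPARD, NR2F2 and NR5A2, led by chr6:35318524-35319118 inside DEF6 in the PPARD window, at 46.5 and 35.5, chr15:96332894-96333280 inside NR2F2, at 11.3 and 39.8, and chr12:47882587-47883054 inside VDR, at 31.6 and 10.2. Both comparisons share the sgNC lists, so they are not independent. The first sgNC list was the longest AsPC1 list. With lists of equal length, 11686 peaks, 4 of 48 regions (8.33%) were specific to sgNC against sgP1, beside 4.79% of all regions, and 1 of 48 (2.08%) to sgP1, beside 3.54%. Against sgP2, 1 of 46 (2.17%) was specific to sgNC, beside 3.58%, and 2 of 46 (4.35%) to sgP2, beside 3.18%. No region at VDR was among them. At a −log10 q of at least 20, 3 of 24 (12.5%) were specific to sgNC against sgP1, beside 11.1%, and 2 of 26 (7.69%) against sgP2, beside 5.69%. The count against sgP1 was 29 without sgNC replicate 2 and 19 without sgP1 replicate 1, and 6 within 10 kb. The count against sgP2 was 21 without sgNC replicate 2 and 14 without sgP2 replicate 2. In the reverse direction the counts of 0 became 3 without sgP1 replicate 1, 2 without sgNC replicate 1 (against sgP1), and 2 without sgP2 replicate 1, 3 without sgNC replicate 1 and 1 without sgNC replicate 2 (against sgP2).

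Between the 2 promoter guides, 0 of 55 regions were specific to sgP1, beside 2.75% of all regions, and 1 of 55 (1.82%) to sgP2, beside 4.32%. The 1 was chr9:134380074-134380473 inside RXRA, at 52.4 and 33.2. It was called in both sgNC and both sgP2 lists and in neither sgP1 list. In lists of equal length, 1 region of 50 (2%), at RXRA, was specific to sgP2 and 1 of 50, at NR2F6, to sgP1, beside 3.99% and 3.72% of all regions. Leaving out sgP1 replicate 1, sgP1 replicate 2, sgP2 replicate 1 or sgP2 replicate 2 gave 5, 3, 9 and 4 regions specific to sgP2 and 3, 1, 1 and 3 specific to sgP1. Under a −log10 q limit of 20, 3 of 22 regions (13.6%) were specific to sgP2, beside 8.11% of all regions.

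With the P1 antibody, sgNC gave 3 regions at these genes in replicate 1 and 2 in replicate 2. Among them were the region 20.9 kb beyond PPARA in both lists and the region inside ESRRA in replicate 1. Under sgP2 there were 15 and 11 regions, at 6 genes in each list. Of these, 14 and 11 were also present in both sgP2 pan lists, and all those of sgNC in both sgNC pan lists. Found in both sgP2 lists and neither sgNC list were 6 of 17 regions (35.3%), beside 36% of all regions, and 0 of 17 the other way, beside 0.0638%. The 6 were 4 at PPARA and 1 each at PPARG and NR2F6. Among the highest ranked were chr22:46105937-46106277 before PPARA, at 84.8 and 81.2, and chr22:46203188-46203560 inside PPARA, at 67 and 69.4. The share at these genes was near that of all regions. The sgNC P1-antibody lists were the shortest of the series. At equal length, 260 peaks, 0 of 3 regions were specific to sgP2, beside 5.78% of all regions. To sgNC 0 of 3 were specific, beside 3.36%. With 3 regions left, counts of 0 say little. Without sgP2 replicate 2 the full-list count for sgP2 was 12, and within a 10 kb window it was 3. VDR, NR2F2, NR5A2 and PPARD had no peak in any P1-antibody list.

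The other genes of the family were read from a fixed list of 38 further nuclear receptor genes. Of the 38 receptors, 10 (26.3%) had a peak within 50 kb in all 14 pan lists, beside 29.6% of all genes. They were THRA, THRB, RARA, NR1D1, RORA, NR1H3, NR1I2, ESR1, NR3C1 and NR0B2, which encode receptors for thyroid hormone, retinoic acid, oxysterols, xenobiotics, estrogen and glucocorticoid, the clock receptors NR1D1 and RORA, and the corepressor SHP. Counts of the 38 with a peak in both lists of a group follow, with the share of all genes in brackets. They were 33 in Panc10.05 P1-α2 (74.5%), 36 in Panc10.05 P2-α8 (79.5%), 30 in BxPC3 P1-α2 (76.6%) and 17 in BxPC3 P2-α8 (45.4%). In AsPC1 the numbers were 21 under sgNC (58.5%), 22 under sgP1 (50.6%) and 19 under sgP2 (52%). With the P1 antibody they were 0 under sgNC (2.31%) and 8 under sgP2 (23.7%). None of the 38 was without a peak in every list.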

How the data were processed

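The data are 18 narrowPeak lists, 1 per immunoprecipitated library; the 14 input libraries among the 32 samples were not used here. Groups came from the labelled cell line, genotype, treatment and antibody. The BxPC3 P2-α8 libraries were grouped by genotype, since their titles write P1 beside α8. Crosslinking used disuccinimidyl glutarate before formaldehyde, per the labels' protocols.

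The submitters' processing notes name Bowtie2 2.2.9, MACS2 2.2.7 and the builds hg38 and mm10, with no role given. The deposited lists give each peak a fold enrichment (a linear ratio), an integer score, and a p-value and q-value, both as −log10. These authors' values served here to rank, filter or describe peaks inside their own list. Peaks were called per library. Read depth is unknown, so no counting interval is given.

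Coordinates are 1-based. Gene spans and promoters came from RefSeq tables of GRCh38.p14, which give no exons and no strand of the span. As a check of the build, 5.33% to 18.8% of summits lay within 1 kb of a coding gene's end, against 3.46% to 4.88% after a shift of 100 kb. Peaks overlapping by at least 1 bp formed a region. A percentile is by fold within a list. Peak numbers per gene were tested over 18569 genes with two-sided exact permutation tests and Benjamini-Hochberg adjustment (Python 3.11.15, numpy 2.4.6, pandas 2.3.3). Regions joined over all 18 lists and over the Panc10.05 lists matched those of bedtools 2.31.1 with 0 differences. So did peak numbers per gene in Panc10.05 P1-α2 replicate 1, the list checked. The tests were checked on simulated data.

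Members and lists were chosen with earlier results of these data known. Printed regions are drawn from the 2 in the most lists at each gene and up to 3 group-specific regions per comparison and direction by mean percentile; others are said to be chosen after seeing their values. A few loci are not reported here. The motifs were chosen after the sequences were seen. Alternatives were a 10 kb window, a −log10 q of at least 20, lists of equal length, summits joined within 100 bp, each replicate left out and a replicate block. Chosen after seeing the data were the −log10 q limit of 8, both −log10 q limits for the classes by line, and equal length for the opposite isoform pattern. Libraries were not paired by replicate number outside the replicate block. The deviations of same-numbered libraries correlated at −0.0766 to 0.0498 over genes, which cannot show whether they were prepared together.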

Additional observations from a re-analysis of the deposited data

Results flagged for a closer look

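At 4 genes the isoform with more peaks differed between the induced lines. Every P2-α8 list lay above every P1-α2 list in Panc10.05 and below every P1-α2 list in BxPC3. In Panc10.05 isoform and doxycycline dose cannot be told apart. The P1-α2 minus P2-α8 difference in mean peaks in BxPC3, less the same difference in Panc10.05, was 7.5 at PPARA, 12.5 at RXRA, 7 at NR2F6 and 7.5 at VDR. These genes were picked because their lists separate completely in both lines, which fixes the permutation p of the difference at the smallest possible value, so the difference was not tested. The pattern held at 16.9% of all genes. List lengths separated the isoforms in BxPC3, with 41808 and 33737 peaks for P1-α2 and 12681 and 14666 for P2-α8. In Panc10.05 they overlapped, with 24828 and 34146 for P1-α2 and 39111 and 33646 for P2-α8. With every list at 12681 peaks, none of the 10 genes showed the pattern.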

How the results depend on the processing

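Among the alternative values for single genes in the tests of line and isoform, 215 stayed in direction and within 1 SD, 20 moved and 5 reversed. All 5 reversals came with lists of equal length: −0.25 peaks for NR2F2 between lines, and −1.25 for PPARA, −1.25 for PPARD, −0.75 for RXRA and −2.5 for ESRRA between isoforms. The cause of these was not tested beyond the construction, which leaves fewer peaks. Equal length also gave 5 genes with a peak in both BxPC3 P1-α2 lists, 0 with the P1 antibody under sgNC and 0 under sgP2; 1 region for BxPC3 P1-α2 and 2 for BxPC3 P2-α8; 1 for sgP1 and 4 for sgNC against each other; 2 for sgP2 and 1 for sgNC; 1 for sgP1 against sgP2; 0 for the P1 antibody under sgP2; and 0 genes with opposite isoform directions.

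Within 10 kb, P1-antibody sgNC had 0 genes, and specific regions numbered 1 for Panc10.05 P1-α2, 15 for BxPC3 P1-α2, 6 for sgNC over sgP1 and 3 for the P1 antibody under sgP2; 276 genes reached the smallest isoform p, against 460. At a −log10 q of at least 20, P1-antibody genes were 0 (sgNC) and 3 (sgP2), specific regions 3 for sgNC over sgP1, 2 for sgNC over sgP2 and 3 for sgP2 over sgP1, and regions by line 7 for all 3 lines, 4 for Panc10.05 and AsPC1, 3 for BxPC3 and AsPC1 and 3 for AsPC1. At 8, P1-antibody sgNC had 1 gene and AsPC1 alone 6 regions. Summits within 100 bp gave 5 for Panc10.05 P1-α2 and 1 for sgP2 over sgNC.

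Leaving out 1 library eases the call by construction. Specific regions then ranged from 3 to 9 for Panc10.05 P1-α2, 19 to 32 for Panc10.05 P2-α8, 25 to 37 for BxPC3 P1-α2, 0 to 1 for BxPC3 P2-α8, 0 to 3 for sgP1 over sgNC, 10 to 29 for sgNC over sgP1, 0 to 3 for sgP2 over sgNC, 9 to 21 for sgNC over sgP2, 1 to 3 for sgP1 over sgP2, 3 to 9 for sgP2 over sgP1 and 6 to 12 for the P1 antibody under sgP2. Genes at the smallest isoform p ranged from 349 to 1304, the highest without Panc10.05 P1-α2 replicate 1, and without Panc10.05 P2-α8 replicate 1 there were 697. With a replicate block, 3591 genes (line) and 606 (isoform) reached the smallest p, which is then 0.125. NR2F2 (line) joined NR2F1, VDR and ESRRA there, at 0.125 against 0.222 without the block; no p could reach 0.05 in either design.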
